A study of Mus musculus with 2 samples.

Results

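The 10 genes described here encode apolipoproteins or proteins carried with them: Apoe, Apoc1, Apoa1, Apoa2, Apoa4, Apoa5, Apob, Apoc3, Apoh and Apom. They were chosen by name, with the difference between the libraries already known, and 10 of the 18168 genes with reads in either library are members. The material was total RNA from the adrenal gland of B6CASTF1/J male mice at 25 days of age, a hybrid of C57BL/6 and CAST/EiJ, read with long-read RNA sequencing. The study has 1 group with 2 libraries, named replicate 2 and replicate 1 by the labels. No treatment, mutation or other condition is given, so every comparison below sets 1 library against the other. The labels leave it unclear whether the libraries came from separate animals: the library descriptions name the same animal, the tissue descriptions name different ones, and the donor record is shared. The spread between the libraries may therefore be technical.

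Apolipoproteins hold the lipids of plasma lipoproteins in solution and direct them to enzymes and receptors. ApoB is the large, non-exchangeable protein of the particles secreted by liver and intestine, while the smaller ApoA, ApoC and ApoE proteins move between particles. The adrenal cortex takes up lipoprotein cholesterol as a substrate for steroid hormones. Liver is the main source of most of these proteins, whereas Apoe is also made by macrophages, astrocytes and, in rodents, adrenocortical cells.

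Replicate 2 held 1210671 reads in annotated mouse genes and replicate 1 held 752432. Levels are CPM, the reads of a gene scaled to 1000000 of those gene reads, with no length correction, because every long read was counted once, whatever its length. The limit that a count of 0 allows, 3 reads, was 2.48 CPM in replicate 2, against 3.99 CPM in replicate 1. The 95% Poisson interval of 0 reads in replicate 1 reaches 4.90 CPM. Folds given below as at least a value divide the replicate 2 level by the 3-read limit of replicate 1. Brackets hold 95% intervals that cover counting error only. The adrenal label was checked against marker lists: adrenocortical markers summed to 25032 CPM in replicate 2, against 61457 CPM in replicate 1, and chromaffin markers to 7114 CPM and 9412 CPM. Markers of hepatocytes summed to 83710 CPM in replicate 2, against 1151 CPM in replicate 1. Of the 15 hepatocyte markers, 10 had 0 reads in replicate 1, and Alb, the gene of serum albumin, had 21951 reads in replicate 2, against 2 in replicate 1. The replicate 1 sum was made up mainly of Pck1 (789 CPM), Trf (219 CPM) and Cyp2e1 (137 CPM), which are not particular to liver. These genes are also part of the replicate 2 sum. There Trf had 26314 CPM, the highest of the 15 markers, Cyp2e1 had 1440 CPM, and Pck1 had 614 CPM, lower than in replicate 1. Markers of skeletal muscle summed to 0 CPM in replicate 2, against 2129 CPM in replicate 1. The part of other tissue in the differences below was not tested.

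All 10 genes were detected in replicate 2 and 3 of them in replicate 1. Together they took 2.68% of the gene reads of replicate 2 (26801 CPM) and 0.178% of those of replicate 1 (1780 CPM). Without Apoe the sums were 9900 CPM in replicate 2, against 116 CPM in replicate 1. The 10 genes were spread over 166 transcript models in replicate 2 and 16 in replicate 1. Fisher's exact test on reads, which compares these 2 libraries and not conditions, called all 10 higher in replicate 2, beside 11.5% of all genes tested called higher and 25.3% called lower. The genes were proposed with this contrast known, so the count is a description. Fewer cells of a type and less RNA per cell cannot be told apart in bulk tissue.

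**Figure D1:**
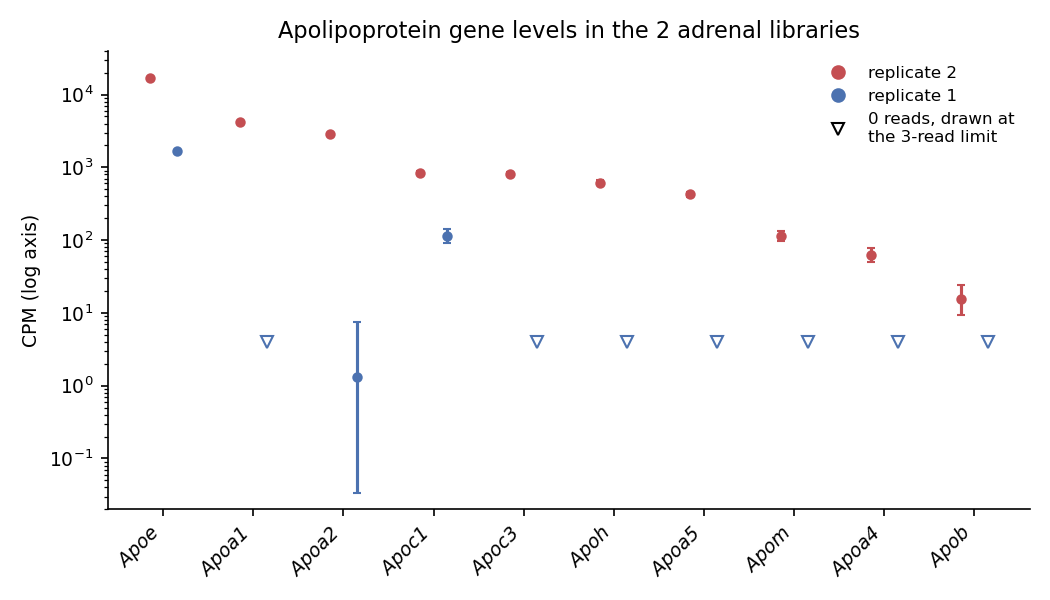
Level of each apolipoprotein gene in CPM (log axis), with replicate 2 in red and replicate 1 in blue. Bars are 95% Poisson intervals, and open triangles mark genes with 0 reads at the 3-read limit. Apoe and Apoc1 are measurable in both libraries, Apoa2 has 1 read in replicate 1, and the other 7 genes have none there.

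Apoe encodes the ligand through which lipoprotein remnants bind receptors of the LDL receptor family. The gene lies on the minus strand at chr7:19696109-19699188 (mm10, GENCODE M21). It had 20461 reads in replicate 2 (16900 CPM, rank 3 among all genes) and 1252 reads in replicate 1 (1664 CPM, rank 38). The level was 10.2-fold higher in replicate 2 (9.59 to 10.8). In replicate 1, where Alb had 2 reads, Apoe was thus still among the 38 most abundant genes. Markers of macrophages, another known source of Apoe, summed to 245 CPM in replicate 2, against 272 CPM in replicate 1. Of the 8 markers, 0 were called in either direction, beside 11.5% of all genes called higher and 25.3% called lower. Several had few reads, such as Adgre1 (8 in replicate 2, 9 in replicate 1) and Cd68 (9 and 9), so a call was hard to reach. The part of macrophages in the Apoe difference was not tested.

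Apoc1, a small exchangeable protein of triglyceride-rich particles and HDL, is the neighbour of Apoe on the same strand (chr7:19689481-19692660). It had 998 reads in replicate 2 (824 CPM) and 86 in replicate 1 (114 CPM), and was 7.21-fold higher in replicate 2 (5.78 to 9.10). These are the 2 members with enough reads in both libraries for a ratio with a narrow interval.

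The remaining 8 members were at or under the limit in replicate 1. Apoa1, the main protein of HDL and an activator of the enzyme LCAT (chr9:46228580-46230466, plus strand), had 5014 reads in replicate 2 (4142 CPM) and 0 in replicate 1. Apoa2, another structural protein of HDL (chr1:171225054-171226379, plus strand), had 3504 reads in replicate 2 (2894 CPM) and 1 in replicate 1 (1.33 CPM), a ratio of 2178 with an interval from 391 to 86040. Apart from Apoe, these were the members with the highest levels in replicate 2.

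Apoc3, Apoa5 and Apoa4 are also proteins of triglyceride-rich particles. Apoc3, which inhibits lipoprotein lipase (chr9:46232933-46235636, minus strand), had 974 reads in replicate 2 (805 CPM) and 0 in replicate 1, at least 201.8-fold higher. Apoa5, which promotes that lipolysis (chr9:46268633-46271919, plus strand), had 517 reads in replicate 2 (427 CPM) and 0 in replicate 1, at least 107-fold higher. Apoa4, a protein of chylomicrons and HDL (chr9:46240696-46243459, plus strand), had 76 reads in replicate 2 (62.8 CPM) and 0 in replicate 1, at least 15.7-fold higher.

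Apoh, the phospholipid-binding beta-2-glycoprotein I (chr11:108343354-108414396, plus strand), had 745 reads in replicate 2 (615 CPM) and 0 in replicate 1, at least 154-fold higher. Apom, a lipocalin of HDL that carries sphingosine-1-phosphate (chr17:35128997-35132050, minus strand), had 139 reads in replicate 2 (115 CPM) and 0 in replicate 1, at least 28.8-fold higher. Apob (chr12:7977648-8016835, plus strand) was the lowest, with 19 reads in replicate 2 (15.7 CPM; 9.45 to 24.5) and 0 in replicate 1, at least 3.94-fold higher. In the order of levels in replicate 2, Apoc1 (774 to 877 CPM) and Apoc3 (755 to 857 CPM) were neighbours whose intervals overlapped. All other neighbours in that order were separated by more than counting error.

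The share of each gene in the summed member reads also differed. Apoe made up 63.1% of them in replicate 2 (62.5 to 63.6) and 93.5% in replicate 1 (92.0 to 94.8). Apoa1 made up 15.5% in replicate 2, and its share of 0 in replicate 1 allows up to 0.275%.

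The deposited models carry a class. Known models match an annotated transcript, incomplete splice matches (ISM) match part of one, NIC and NNC models join known or new splice sites in new ways, and genomic models are mostly unspliced. The share of reads in known models was at or above 90% in replicate 2 for 6 members: Apoa1 (96.5%), Apom (95.7%), Apoc3 (94.4%), Apoa2 (94.3%), Apoc1 (90.9%) and Apoh (90.5%). Over all genes it was 75.6% of reads in replicate 2 and 77.0% in replicate 1. The lower values were those of Apoa5 (85.5%), Apoe (82.5%), Apoa4 (53.9%) and Apob (0%). Some annotated transcripts are short, such as an Apoe transcript of 2 exons and 472 bases, so a known model need not be full length. The known transcripts with the most reads of the 6 members at or above 90% had 432 to 1190 bases. The shares were not adjusted for length.

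**Figure D2:**
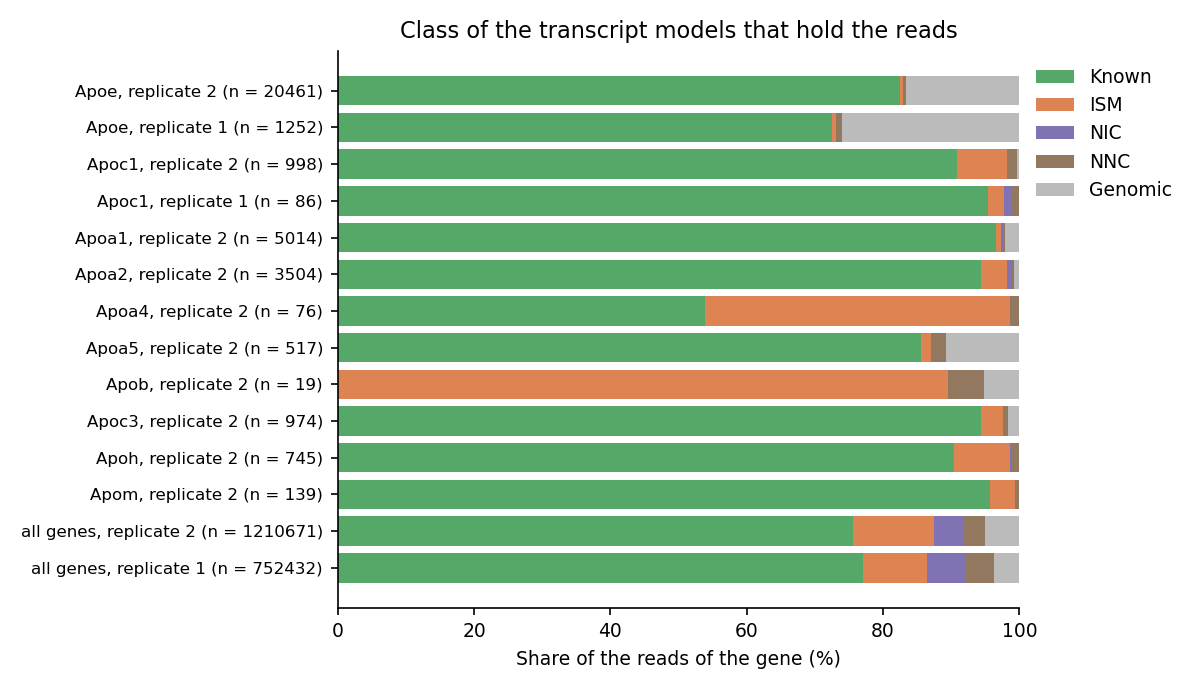
Share of the reads of each gene (%) held by known, ISM, NIC, NNC and genomic models, with the number of reads after each name. Apoe and Apoc1 are drawn for both libraries, the other members for replicate 2. Known models hold most reads of every member except Apob, where they hold 0%, and genomic models hold 16.7% of Apoe reads in replicate 2 and 26.0% in replicate 1.

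Apoe and Apoc1 were the members with the 20 reads in each library that a test of the share needs. Known models held 82.5% of Apoe reads in replicate 2 (16882 of 20461) and 72.4% in replicate 1 (907 of 1252), a difference of 10.1 percentage points (7.54 to 12.6; Fisher's exact test on reads, adjusted p = 3.63e-15). Over the 5749 genes tested, 11.0% were called, 61 higher and 570 lower in replicate 2, and the median difference was -3.05 points. Apoe ranked 332 among these genes by the size of the rise. With genomic reads left out of the denominator, the Apoe shares were 99.01% in replicate 2 and 97.8% in replicate 1, a difference of 1.17 points (adjusted p = 0.0281). For Apoc1 the known share was 90.9% in replicate 2 and 95.3% in replicate 1, a difference of -4.47 points whose interval spans 0 (-9.26 to 0.33; adjusted p = 0.584).

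The genomic reads of Apoe fell in 1 model in each library. It was a single stretch of 354 bases (chr7:19696267-19696620) within the last exon of the leading Apoe transcript (19696109-19697103). It held 3411 reads in replicate 2, against 325 in replicate 1. The upstream end of the model coincides with the annotated end of a shorter Apoe transcript, so model ends may have been set to annotated ones and need not be read ends. Genomic models held 4.998% of the reads of all genes in replicate 2 and 3.78% in replicate 1.

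Among spliced Apoe reads, the leading transcript (4 exons, 1408 bases) held 96.5% in replicate 2 (96.2 to 96.8) and 94.8% in replicate 1 (93.2 to 96.2). Its share of all Apoe reads was 80.4% in replicate 2 and 70.2% in replicate 1 (difference 10.2 points, adjusted p = 1.38e-14, beside 12.2% of genes called for their leading structure). Models that start within intron 1 held 2.50% of spliced reads in replicate 2 (426 of 17050; 2.27 to 2.74) and 4.10% in replicate 1 (38 of 927; 2.92 to 5.58), and these intervals do not overlap. Introns 2 and 3 were retained in 0 spanning reads of either library. Annotated transcripts that run into intron 3 and end inside it do not span it, and held 23 and 6 reads in replicate 2. Replicate 2 had 26 new chains and replicate 1 had 4, and all 4 of these were also in replicate 2. The one with the most reads in replicate 1 had a first exon that lies entirely within intron 1 (chr7:19698860-19699008). It had 16 reads in replicate 2 (0.0782% of Apoe reads; 0.0447 to 0.127) and 8 in replicate 1 (0.639%; 0.276 to 1.26). The new chain with the most reads in replicate 2 had 22 reads there, against 1 in replicate 1.

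RefSeq has 3 Apoe starts (GRCm38.p6, minus strand), 1 upstream and 2 within intron 1. The upstream one and the one nearest to the annotated transcript that starts in intron 1 are shown, because the start separates the structures just described. Each sequence is the 250 bases before the start, 5′ to 3′, with matches to the motifs searched in capitals.
Apoe, upstream start (chr7:19699189-19699438): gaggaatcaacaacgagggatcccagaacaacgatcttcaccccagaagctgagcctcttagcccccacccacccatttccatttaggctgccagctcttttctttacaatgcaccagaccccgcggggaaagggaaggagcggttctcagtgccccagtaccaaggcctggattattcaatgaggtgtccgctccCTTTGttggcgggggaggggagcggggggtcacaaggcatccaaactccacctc
Apoe, start within intron 1 (chr7:19698399-19698648): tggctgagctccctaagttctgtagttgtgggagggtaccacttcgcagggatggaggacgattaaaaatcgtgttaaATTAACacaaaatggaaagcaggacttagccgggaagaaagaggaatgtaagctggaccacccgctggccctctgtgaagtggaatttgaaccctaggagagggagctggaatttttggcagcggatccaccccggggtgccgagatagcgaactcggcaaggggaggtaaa
The upstream window has 1 match to CAAAG, on the reverse strand. The other window has 1 match to GTTAAT, also on the reverse strand, and a match to CAAAG begins at 5 relative to that start. No model of either library began at the third RefSeq start (19698621), whose window has 2 matches to TATAAA, 1 on each strand, and 1 to CAAAG.

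The leading Apoc1 transcript (4 exons) held 86.0% of reads in replicate 2 (858 of 998) and 89.5% in replicate 1 (77 of 86; adjusted p = 0.759). An annotated transcript that keeps intron 1 held 47 reads in replicate 2, against 4 in replicate 1. Intron 1 was retained in 5.11% of spanning reads in replicate 2 (3.78 to 6.74) and 4.82% in replicate 1 (1.33 to 11.9), a difference within counting error.

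Apoa2 had 2 leading structures of similar size in replicate 2, 1 with 1736 reads (49.5%) and 1 with 1520. They differ where exon 2 begins. Of 3338 reads spliced from exon 1, 52.6% (50.9 to 54.3) joined position 171225287 of chromosome 1, and 45.9% (44.2 to 47.6) joined position 171225284, which lies 3 bases upstream. Smaller numbers joined an acceptor 12 bases downstream of the first (171225299, 41 reads) or 19 bases upstream of it (171225268, 7 reads). The annotated start codon (171225315) lies after all 4 acceptors, so the transcripts differ in the untranslated leader. The junctions are shown as the last 10 bases of exon 1 and the first 20 of exon 2, from GENCODE M21 transcripts, with the bases upstream of 171225287 in capitals.
Apoa2, acceptor 171225268: cacagaatcgTGTTCTTTCTCACCAGCAGc
Apoa2, acceptor 171225284: cacagaatcgCAGcactgttcctaggccat
Apoa2, acceptor 171225287: cacagaatcgcactgttcctaggccatagt
Apoa2, acceptor 171225299: cacagaatcggccatagtctgccatcatga
The capitals of the second sequence are a single CAG, which is also the last CAG of the longer stretch in the first. The new Apoa2 chain with the most reads had 8 in replicate 2.

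The single Apoa2 read of replicate 1 had another first exon (chr1:171221904-171221978), upstream of the annotated gene, joined to the acceptor at 171225284. In replicate 2, 2 reads had a first exon that ends at the same base, 1 starting at 171221904 and 1 at 171221572. RefSeq has a second Apoa2 start nearby, and the windows before both starts are shown for comparison (GRCm38.p6, plus strand).
Apoa2, annotated start (chr1:171224804-171225053): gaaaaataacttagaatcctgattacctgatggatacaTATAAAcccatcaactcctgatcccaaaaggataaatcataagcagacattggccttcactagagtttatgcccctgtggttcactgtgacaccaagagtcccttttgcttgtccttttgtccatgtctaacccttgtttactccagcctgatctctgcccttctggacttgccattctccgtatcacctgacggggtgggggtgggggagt
Apoa2, upstream start (chr1:171221314-171221563): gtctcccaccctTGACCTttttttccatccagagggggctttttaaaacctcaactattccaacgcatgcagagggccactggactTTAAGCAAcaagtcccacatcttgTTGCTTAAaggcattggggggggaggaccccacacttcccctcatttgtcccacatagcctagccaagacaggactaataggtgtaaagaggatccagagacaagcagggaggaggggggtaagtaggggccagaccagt
The window at the annotated start has 1 match to TATAAA. The upstream window has 2 matches to TTGCNNAA, 1 on each strand, and 1 to AGGTCA on the reverse strand.

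The leading Apoa1 transcript (4 exons, 1035 bases) held 87.4% of the 5014 reads of replicate 2 (86.5 to 88.3), and an annotated transcript of 3 exons held 456 reads. Intron 1 was kept in 12.0% of spanning reads (11.2 to 13.0), intron 2 in 2.95% and intron 3 in 2.19%. The 250 bases before the RefSeq start of Apoa1, the member with the second highest level in replicate 2, held no match to any motif searched (GRCm38.p6, plus strand).
Apoa1 (chr9:46228380-46228629): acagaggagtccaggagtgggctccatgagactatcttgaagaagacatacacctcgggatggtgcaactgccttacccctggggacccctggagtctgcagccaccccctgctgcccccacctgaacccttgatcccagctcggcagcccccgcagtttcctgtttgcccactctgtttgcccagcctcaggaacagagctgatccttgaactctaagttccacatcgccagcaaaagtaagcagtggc

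The 8 motifs were searched on both strands of windows from 250 bases before to 50 after each RefSeq start. The table used has 12 windows for 8 of the 10 members. Longer motifs can contain shorter ones, as CAAAGTCCA holds CAAAG and CAAGGTCA holds the letters AGGTCA. Matches to TATAAA were found in 5 member windows and in 13.6% of all 32851 promoters, CAAAG in 8 and in 53.9%. GGGCGG was in 0 member windows and in 35.7% of all, and CAAAGTCCA was in 0 and in 0.475% of all. AGGTCA was in 2 (16.3% of all), TTGCNNAA in 2 (10.8%), GTTAAT in 1 (7.10%) and CAAGGTCA in 0 (1.56%). Apoa5 had TATAAA at -31 from 1 of its 2 starts and at -56 from the other. These 2 windows overlap, so the same TATAAA was counted in both, as was the same reverse CAAAG. The other TATAAA matches lay at -60 (Apob), -212 (Apoa2), and -96 and -100 (Apoe, at the start where no model began). A match is a run of letters, not a bound site.

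The leading Apoa5 transcript held 78.3% of reads in replicate 2 (405 of 517), an annotated transcript with a further upstream exon 34 reads, and the leading new chain 7. A genomic model spanning 2747 bases held 55 reads, and intron 1 was retained in 11.6% of spanning reads (8.99 to 14.7). Leading transcripts held 91.3% of Apoc3 reads (889 of 974), 674 of 745 Apoh reads (8 exons) and 133 of 139 Apom reads. The leading new Apoh chain, with an exon 7 that begins 2 bases later, held 5. For Apoa4, the annotated transcript held 41 of 76 reads, and 30 reads lay in a single-exon ISM model of 1181 bases at the 3′ end.

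Apob stood apart by length. The annotated Apob transcript used as the scale has 28 exons and 13369 bases, with a single exon, number 25, of 7467 bases. The 19 reads of replicate 2 fell into 14 models, of which 10 had 1 read, and none covered the transcript from end to end. Model lengths were 963 to 4547 bases (median over reads 2243), so that the longest equalled 34.0% of that transcript. Models starting in the first exon held 10 reads, models reaching the last exon held 3, and 0 reads lay in a model that did both. Of the models that started in the first exon, the longest spanned 26 exons of a second annotated transcript, which has 29, and ended early in the long exon.

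**Figure D3:**
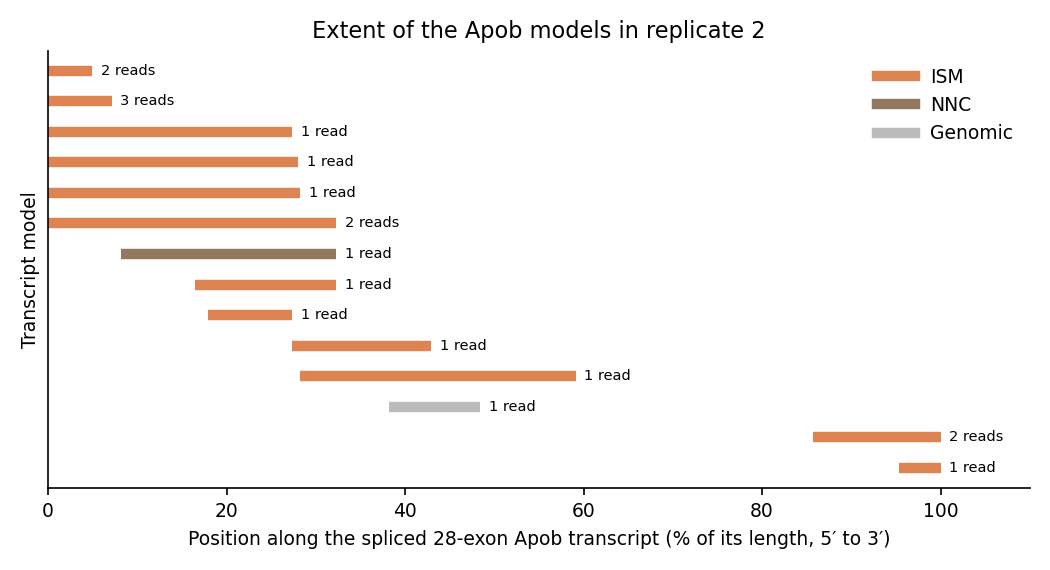
Extent of the 14 Apob models of replicate 2 along the spliced Apob transcript of 28 exons (% of its length, 5′ to 3′), each drawn as a bar in the colour of its class with its number of reads. Models with 10 reads start in the first exon, models with 3 reads reach the end, and no bar spans the transcript.

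Members lie in 2 clusters, and the neighbours of each were compared. On chromosome 7, the 4 apolipoprotein genes Apoc2, Apoc4, Apoc1 and Apoe lie side by side. Apoc2, which activates lipoprotein lipase, had 115 reads in replicate 2, against 1 in replicate 1. Apoc4 had 353 reads in replicate 2, against 14 in replicate 1, a log2 difference of 3.92 (SE 0.39). The flanking genes differed less. Tomm40, a mitochondrial import channel gene beside Apoe, had 244 CPM in replicate 2, against 234 CPM in replicate 1 (log2 0.06, SE 0.14), and Nectin2, an adhesion gene, had 136 CPM and 129 CPM (log2 0.08, SE 0.18). With TMM or DESeq2 scaling, which move the median log2 difference of all genes (-0.34) to 0.01 and 0.07, Tomm40 was called higher, at 0.41 and 0.46, and Nectin2 with DESeq2 scaling alone, at 0.48. Clptm1, a membrane protein gene, had 219 CPM in replicate 2, against 613 CPM in replicate 1 (log2 -1.48, SE 0.11).

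Within the 4 apolipoprotein genes of that cluster, Apoe held 93.3% of reads in replicate 2 (93.0 to 93.6) and 92.5% in replicate 1 (91.0 to 93.9). The Apoc1 share was 4.55% in replicate 2 (4.28 to 4.84) and 6.36% in replicate 1 (5.12 to 7.79), and the 2 intervals do not overlap. Apoc4 held 1.61% in replicate 2 (1.45 to 1.79) and 1.03% in replicate 1 (0.567 to 1.73). Apoc2 held 0.524% in replicate 2 (0.433 to 0.629) and 0.0739% in replicate 1 (0.00187 to 0.411). Apoe thus held the great majority of the cluster's reads in both libraries, and the Apoc1 and Apoc2 shares were the ones whose intervals separated.

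On chromosome 9, Apoa1, Apoc3, Apoa4 and Apoa5 had 6581 reads together in replicate 2 and 0 in replicate 1. Apoa1 held 76.2% of them (75.1 to 77.2), Apoc3 14.8%, Apoa5 7.86% and Apoa4 1.15%. The flanking genes were measured in both libraries. Sik3, a kinase gene, had 20 reads in replicate 2, against 26 in replicate 1, Pafah1b2 had 155 and 153, Zpr1 had 103 and 79, and Bud13 had 18 and 21. Scaled to depth, Sik3 had 16.5 CPM in replicate 2, against 34.6 CPM in replicate 1 (log2 -1.06). Pafah1b2 had 128 CPM and 203 CPM (log2 -0.67). Both were called lower in replicate 2, beside 25.3% of all genes. Zpr1 (85.1 CPM and 105 CPM) and Bud13 (14.9 CPM and 27.9 CPM) were not called. The absence of reads in replicate 1 thus covered the 4 apolipoprotein genes and none of these neighbours.

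**Figure D4:**
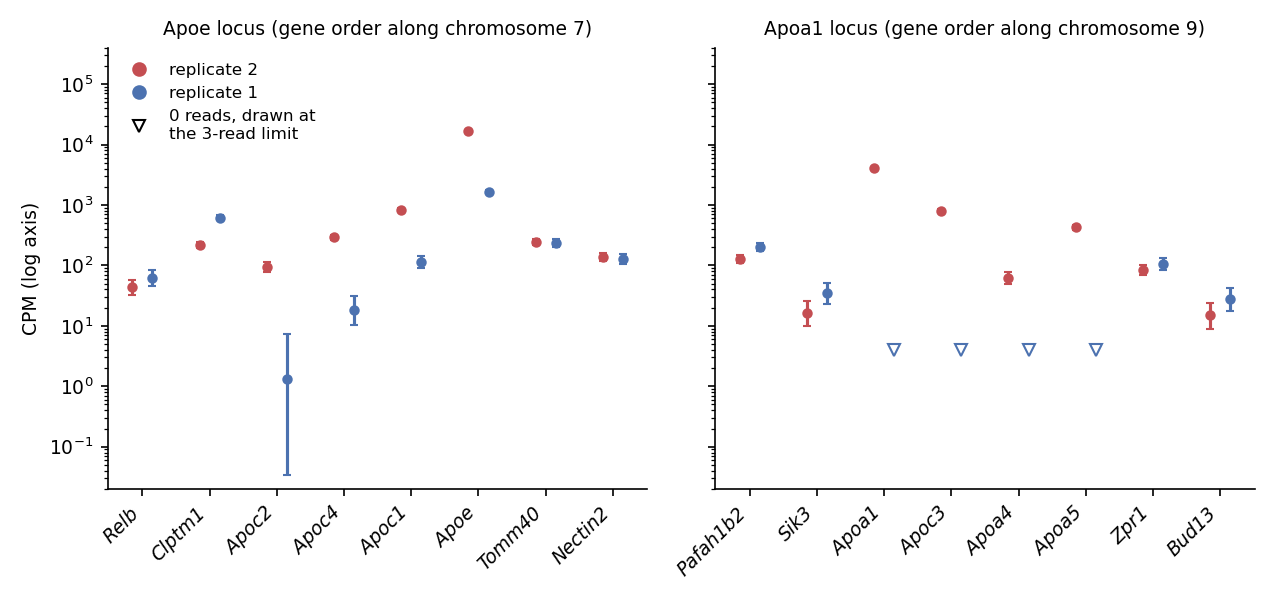
Level in CPM (log axis) of genes in their order along the Apoe locus and the Apoa1 locus, with replicate 2 in red and replicate 1 in blue, 95% Poisson intervals, and open triangles for 0 reads at the 3-read limit. The apolipoprotein genes of both loci are higher in replicate 2, while Tomm40 and Nectin2 lie at nearly the same CPM in both libraries (with TMM scaling, log2 0.41 for Tomm40).

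Genes of the wider pathway were compared from lists. Among 14 tested genes of other apolipoproteins and lipoprotein proteins, 9 were higher and 1 lower in replicate 2 (11.5% and 25.3% of all genes). Their median log2 difference was 4.05, or 2.94 with genes at 0 reads set at their bound, against -0.34 over all 11382 genes tested. The 4 with the highest mean level were Clu, a chaperone also named apolipoprotein J (268 CPM in replicate 2, 200.7 CPM in replicate 1), Apof (440 CPM and 0), Apoc4 (292 CPM and 18.6 CPM) and Pon1, an HDL enzyme (297 CPM and 6.65 CPM). The gene called lower was Apol6, with 2 reads in replicate 2, against 18 in replicate 1.

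Of 12 tested genes for receptors and uptake, 1 was higher and 3 were lower in replicate 2, shares near the 11.5% and 25.3% of all genes, and their median log2 difference was -0.49. Scarb1, the HDL receptor that delivers cholesteryl esters to the adrenal cortex of mice, had 953 CPM in replicate 2, against 2065 CPM in replicate 1 (log2 -1.12, SE 0.06), a call lost with an assumed coefficient of variation of 0.2 between libraries. Lrpap1, a chaperone of the receptor family, had 200 CPM in replicate 2, against 279 CPM in replicate 1, a call lost with either alternative scaling. Cd36 had 201.5 CPM in replicate 2, against 210 CPM in replicate 1 (not called; the sign turns with either alternative scaling and with known transcripts alone).

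Genes for assembly and secretion of lipoproteins had 6 higher and 0 lower of 9 tested, beside 11.5% and 25.3% of all genes. Their median log2 difference was 1.69, against -0.34 over all genes. P4hb, a subunit of the microsomal triglyceride transfer protein complex that loads lipid onto ApoB, had 3190 CPM in replicate 2, against 989 CPM in replicate 1 (log2 1.69, SE 0.06). Mttp, the other subunit, had 156 CPM in replicate 2, against 26.6 CPM in replicate 1 (log2 2.52, SE 0.34). Tango2, which is among the 6, had 150 CPM and 63.8 CPM and was called higher, though not with the assumed variation. Its part in lipoprotein secretion was not tested. Surf4, a cargo receptor (180 CPM in replicate 2, 217 CPM in replicate 1), and Sar1b, a coat GTPase (138 CPM and 108 CPM), were not called, though Sar1b was called higher with either alternative scaling.

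Of 13 tested genes for remodelling, efflux and lipolysis, 6 were higher and 2 lower, beside 11.5% and 25.3% of all genes. Their median log2 difference was 0.45, against -0.34 over all genes. Lpl, the lipase that clears triglyceride, had 493 CPM in replicate 2, against 1199 CPM in replicate 1 (log2 -1.28, SE 0.08). Lipa, the lysosomal lipase, had 111 CPM in replicate 2, against 263 CPM in replicate 1 and was also called lower. Angptl4, a secreted inhibitor of Lpl, had 173 CPM in replicate 2, against 161 CPM in replicate 1 and was not called, but was called higher with either alternative scaling.

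Among 18 tested regulators of apolipoprotein genes, 10 were higher and 3 lower, beside 11.5% and 25.3% of all genes tested. Their median log2 difference was 1.33, against -0.34 over all genes. Regulators with 0 reads in replicate 1 included Creb3l3 (352 reads in replicate 2), Foxa3 (71), Hnf4a (61) and Foxa2 (24), known as transcription factors of liver. Their bounds ran from at least 72.9-fold higher for Creb3l3 to at least 4.97-fold for Foxa2. The 5 tested regulators that were not called included Nr1h4 (41 reads in replicate 2, 16 in replicate 1) and Nr0b2 (58 and 51). Cebpa had 334 CPM in replicate 2, against 93.0 CPM in replicate 1 (log2 1.83, SE 0.19). Nr5a1, the steroidogenic factor of the adrenal cortex, had 279 CPM in replicate 2, against 537 CPM in replicate 1 (log2 -0.94, SE 0.11), a call lost with that assumed variation. Nr1h2, a liver X receptor, had 112 CPM and 187 CPM, a call lost with either alternative scaling. Cebpb had 1164 CPM in replicate 2, against 1260 CPM in replicate 1, was not called, and its sign turns with either scaling.

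**Figure D5:**
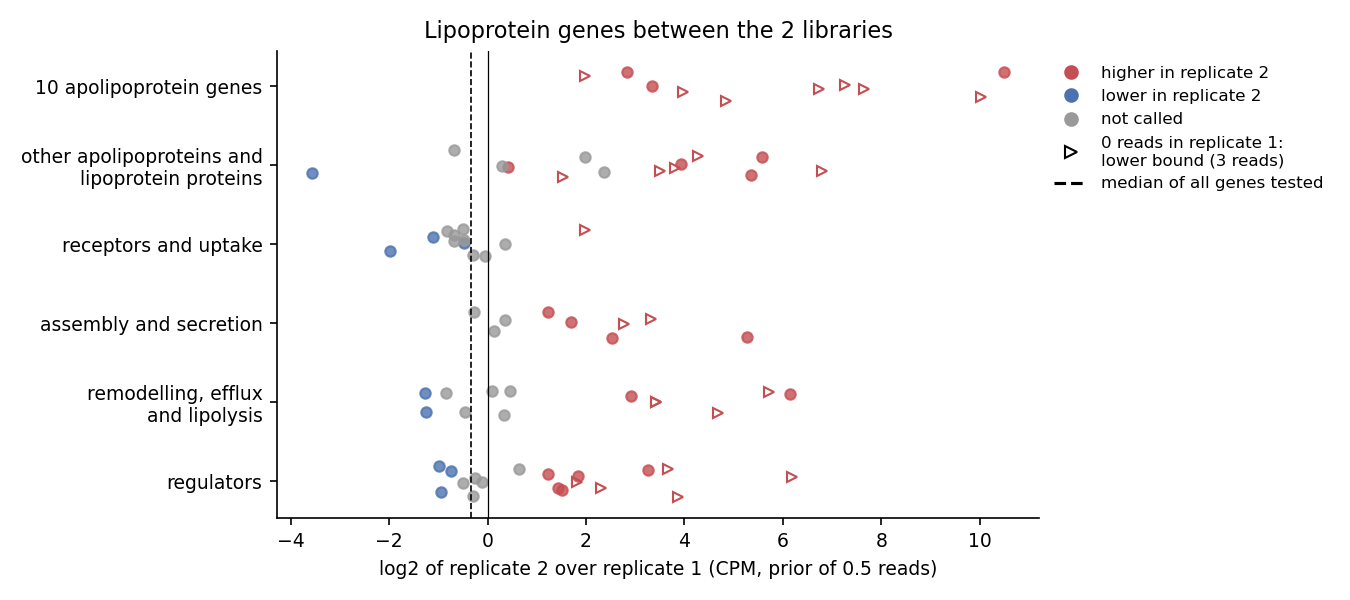
Log2 difference of replicate 2 over replicate 1 for each tested gene of the 10 apolipoprotein genes and 5 pathway lists, coloured by the call (red higher, blue lower, grey not called). Open triangles are genes with 0 reads in replicate 1 at their 3-read lower bound, and the dashed line is the median of all genes, -0.34. Receptors lie around that median, whereas 9 of 14 other lipoprotein genes lie above it and were called higher (11.5% of all genes).

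Genes with a ratio like that of Apoe were sought among the 1406 genes whose count reached 100 reads in both libraries. The 5 closest were Cyp2e1 (log2 3.39), Hp (3.95), Selenop (2.55), Aldh2 (2.53) and Gstm1 (2.27), against 3.34 for Apoe. The last of them, Gstm1, lay 1.07 away. Of the 1406 genes, 3 lay above Apoe, but the minimum left out genes with few reads in replicate 1, such as Alb (12.4). The likeness rests on 1 ratio between 2 libraries.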

How the data were processed

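The deposited files of each library hold raw read counts of transcript models and the exons of those models. The build, per the file headers, is mm10 with GENCODE M21 genes. Not given in the sources used here are the aligner and whether PCR copies were merged. A gene's counts over its models were added up and divided by reads in annotated mouse genes (CPM), leaving out spike-ins and other loci. Genes with at least 10 reads over both libraries were compared by two-sided Fisher's exact tests on reads, and shares of known models or of the leading structure in genes that reached 20 reads in both libraries, with Benjamini-Hochberg adjustment over all genes and a threshold of 0.05 (Python 3.11.15, SciPy 1.17.1). Log2 ratios used a prior of 0.5 reads. Intervals are 95% Clopper-Pearson or Poisson intervals, and a count of 0 was given a floor of 3 reads. The tests were checked on simulated counts with counting error alone, so the check does not cover variation between libraries. A structure was taken as shared when strand and intron chain were equal. Alternatives used edgeR 4.0.16 and DESeq2 1.42.0.

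The genes and lists were chosen with earlier results of these data known. Named genes are the 10 members, the 4 genes of each pathway list with the highest mean CPM, regulators with 0 reads in a library, the 5 genes with a ratio closest to that of Apoe, and for each member the leading known transcript and the leading new chain of at least 5 reads. Mttp, Apol6, Alb, Nr1h4, Nr0b2 and the cluster neighbours, and for markers Pck1, Trf and Cyp2e1, were named outside that rule after their values were seen. A comparison of protein sequences was planned and is not reported here. Some genes that the rule names are not reported here.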

Additional observations from a re-analysis of the deposited data

How the results depend on the processing

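All 10 members stayed called higher in replicate 2 under every scaling, prior and assumed variation tried, and 9 did with known transcripts alone or a minimum of 50 reads, where Apob had too few reads. The members were proposed with this contrast known, so these counts describe the same 2 libraries and add no support. The summed member level of replicate 2 was 25146 CPM over all reads of the file, 30751 CPM with known transcripts alone and 25062 CPM without genomic models, and that of replicate 1 was 1401 CPM without genomic models. The mean over both libraries (14290 CPM) was 26801 CPM without replicate 1 and 1780 CPM without replicate 2. Over all genes, 1307 were called higher and 2876 lower. With TMM scaling the counts were 2015 and 1563, with DESeq2 size factors 2192 and 1387, and with an assumed coefficient of variation of 0.2 (edgeR's exactTest) 780 and 743. Among other apolipoproteins, the count of lower genes was 0 with known transcripts alone and 0 with a minimum of 50 reads. Among receptors, 0 were higher with that minimum and 1 lower with the assumed variation, which ended the call of Scarb1. Among regulators, 1 was lower with DESeq2 scaling and 0 with the assumed variation, which ended the call of Nr5a1. The assumed variation also ended those of Clu and Tango2. The sign of Cd36 turned with TMM (0.29) and DESeq2 scaling (0.34) and known transcripts alone (0.65), that of Cebpb with TMM (0.23) and DESeq2 scaling (0.29), that of Surf4 with both (0.081 and 0.14) and that of Zpr1 with both (0.043 and 0.10). For shares of known models over all genes, 30 were higher and 277 lower with a minimum of 100 reads, and 130 were higher for the complete chain of the leading transcript. With known transcripts alone, Apoe held 92.6% of its cluster in replicate 2 and 90.6% in replicate 1, Apoc1 4.97% and 8.19%, Apoc4 1.86% in replicate 2 and Apoc2 0% in replicate 1, and in the other cluster Apoa1 held 77.5%, Apoa4 0.657% and Apoa5 7.08%. Of Apob reads, 52.6% lay in models starting in the first exon, and of the reads in models with at least 2 reads, 77.8% did. The mean Apoe share of known models (77.5%) was 82.5% without replicate 1 and 72.4% without replicate 2, and that of Apoc1 (93.1%) was 90.9% and 95.3%. The cause of these shifts was not tested. No paired analysis was possible because the study has 1 group.

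The 2 libraries give no replicate check of any difference between them, counting intervals leave out variation between animals, and 7 members rest on replicate 2 alone. At the depth of replicate 1, a count of 0 allows a level of up to 3.99 CPM.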
